A study of Mus musculus with 12 samples.

Results

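The CC chemokines described here are Ccl2, Ccl3, Ccl4, Ccl5, Ccl6, Ccl7, Ccl9, Ccl12, Ccl17 and Ccl22, the 10 genes chosen by symbol out of the 43280 genes of an RNA-seq table of mouse macrophages. The cells were bone marrow-derived macrophages (BMDM) of C57BL6 background, grown from marrow with M-CSF, the growth factor that drives macrophage differentiation. They came from wild type (wt) mice or from Treml4-/- mice, which lack the myeloid receptor Treml4. Cells of each genotype received PBS vehicle (M0) or lipopolysaccharide (LPS) at 100 ng/mL for 8 h (M1-8 h) or 12 h (M1-12 h), with 2 biological replicates in each of the 6 groups and 12 libraries in all. Whether the replicates came from separate animals, and the age of the mice, are not given in the sources used here, so the p-values measure the spread between these cultures. The question put to these genes was how their RNA changed with LPS and whether it differed between the genotypes.

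Chemokines are small secreted proteins that attract leukocytes by binding receptors of the G protein-coupled kind on their surface. In the CC family the first pair of cysteines is adjacent, and most members are encoded in clusters of neighbouring genes. LPS is sensed by Toll-like receptor 4, whose signalling activates NF-kB and interferon regulatory factors and induces type I interferon, and macrophages are a major source of CC chemokines after this stimulus. The members differ in the cells they call, since CCR2 is the receptor of classical monocytes, CCR1 is carried by macrophages, T cells and granulocytes, and CCR4 by helper and regulatory T cells.

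Between 48008751 and 58500792 reads were counted on genes per library, so that 1 read was worth 0.0171 to 0.0208 CPM, the reads of a gene per 1000000 reads counted on genes. Treml4 was read in all wt libraries, at 3.95 to 13.2 CPM, and had 0 reads in the 6 Treml4-/- libraries. All 6 macrophage markers of a written list were present, and their summed level was 20405 to 27472 CPM at M0 and 8461 to 11727 CPM after LPS. The sum was mostly Lyz2 and Csf1r, with wt means of 14030.5 and 6439 CPM at M0 and 5760 and 1206 CPM at M1-8 h. Emr1 went from 2041 to 1728 CPM and Cd68 from 1649 to 847 CPM. Mertk and Itgam went the other way, from 34.5 to 257 CPM and from 992 to 1126 CPM. The 6 dendritic cell markers went in different directions and summed to 66.6 to 153 CPM at M0 and 36.6 to 78.3 CPM after LPS. Itgax, which macrophages also express, held most of that sum, at 65.8 to 153 CPM at M0 and 32.2 to 69.1 CPM after LPS. Flt3, Zbtb46 and Cd209a stayed at or below 0.713 CPM in every library, Xcr1 had 0 reads at M0 and 2.36 to 7.19 CPM after LPS, and Clec9a had 0.0579 to 0.168 CPM and 1.36 to 2.30 CPM. Summed markers of neutrophils were 43.2 to 137 CPM, and those of T cells, B cells, mast cells with basophils and eosinophils, and stromal cells did not exceed 5.26 CPM. The part of these markers in the chemokine values was not tested. In bulk RNA, fewer cells that make a transcript and less transcript per cell cannot be told apart.

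By the GENCODE M21 annotation of GRCm38, 8 members lie on chromosome 11 and Ccl17 and Ccl22 lie on chromosome 8. The 3 CCR2 ligands form one block, with Ccl2 at chr11:82035571-82037453, Ccl7 at chr11:82045712-82047525 and Ccl12 at chr11:82101845-82103400, all on the plus strand. A second block holds Ccl5 at chr11:83525778-83530518, Ccl9 at chr11:83572919-83578636, Ccl6 at chr11:83587882-83593087 and Ccl3 at chr11:83647844-83649355 on the minus strand, and Ccl4 at chr11:83662584-83664683 on the plus strand. Ccl22 at chr8:94745590-94751699 and Ccl17 at chr8:94810453-94812036 are neighbours on the plus strand.

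Promoter sequence of RefSeq on GRCm38.p6 was matched for 6 of the 10 members, namely Ccl12, Ccl3, Ccl22, Ccl17, Ccl9 and Ccl6, and was not matched for Ccl2, Ccl7, Ccl4 and Ccl5. The stretches below are shown because they set Ccl12, Ccl3 and Ccl22, with RNA raised at both LPS times, beside Ccl17, Ccl9 and Ccl6. Ccl17 was barely read, and the RNA of Ccl9 and Ccl6 differed least from M0 among the tested members. Ccl9 was nevertheless called higher at 8 h in both genotypes. Each stretch gives the 156 bases upstream of the start, 5′ to 3′ on the strand of the gene, and capitals mark a motif. They lie at chr11:82101689-82101844 and chr8:94745434-94745589 and chr8:94810297-94810452 on the plus strand for Ccl12, Ccl22 and Ccl17, and at chr11:83649379-83649534, chr11:83578637-83578792 and chr11:83593088-83593243 on the minus strand for Ccl3, Ccl9 and Ccl6. For Ccl3 and Ccl22 the starts annotated in RefSeq and GENCODE differ (by 94 bases for Ccl22), and the stretch ends before the outer start.
Ccl12: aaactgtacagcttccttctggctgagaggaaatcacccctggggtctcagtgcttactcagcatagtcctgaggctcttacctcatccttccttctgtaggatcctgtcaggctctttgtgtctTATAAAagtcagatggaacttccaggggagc
Ccl3: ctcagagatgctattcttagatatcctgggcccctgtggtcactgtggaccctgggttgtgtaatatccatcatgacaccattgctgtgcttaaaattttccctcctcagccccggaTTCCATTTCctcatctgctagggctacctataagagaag
Ccl22: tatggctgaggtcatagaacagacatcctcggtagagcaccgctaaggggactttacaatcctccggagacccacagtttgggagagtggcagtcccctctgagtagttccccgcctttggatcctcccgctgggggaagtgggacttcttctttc
Ccl17: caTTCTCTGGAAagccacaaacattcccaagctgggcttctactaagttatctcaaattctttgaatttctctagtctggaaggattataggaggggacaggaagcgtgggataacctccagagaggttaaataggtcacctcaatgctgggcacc
Ccl9: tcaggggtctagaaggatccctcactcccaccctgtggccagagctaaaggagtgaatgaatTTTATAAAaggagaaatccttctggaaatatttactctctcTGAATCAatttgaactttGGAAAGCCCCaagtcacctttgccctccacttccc
Ccl6: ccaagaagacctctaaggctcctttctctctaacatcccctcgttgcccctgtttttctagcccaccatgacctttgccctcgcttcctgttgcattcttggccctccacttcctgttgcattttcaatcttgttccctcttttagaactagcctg
The motifs were searched on both strands in windows from 250 bases before to 50 bases after the RefSeq start. They were the NF-kB consensus, TGANTCA (AP-1), TATAAA (the TATA box), GAAANNGAA (the core of the interferon-stimulated response element), and TTC and GAA separated by 4 bases (the STAT6 type). Ccl12 held TATAAA at -31 to -26. Ccl3 held the GAAANNGAA core on the opposite strand at -39 to -31. Ccl17 held the STAT6-type motif at -154 to -145, which matches on both strands. Ccl9 held the most matches. The NF-kB consensus lay on the opposite strand at -35 to -26, and TGANTCA matched on both strands at -53 to -47. TATAAA lay at -92 to -87 and, on the opposite strand, at -94 to -89 and at -224 to -219, of which the first pair overlap. No match was found in the windows of Ccl6 and Ccl22. Over all 32851 promoter windows, 8.46% held the NF-kB consensus, 7.81% TGANTCA, 13.6% TATAAA, 8.56% the GAAANNGAA core and 6.95% the STAT6-type motif. A match is a description of letters and not of a bound factor.

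LPS changed both the amount and the make-up of CC chemokine RNA. At M0 the 10 members summed to 682 ± 2.30 CPM (SD, n = 2) in wt and to 682 ± 6.35 CPM in Treml4-/- cells, and Ccl9 made up 85.8% and 85.9% of that sum. After 8 h of LPS the sum was 5424 ± 269 CPM in wt and 4923 ± 292 CPM in Treml4-/- cells, with 62.2% and 52.9% of it from Ccl5. At M1-12 h it was 6390 ± 229 CPM in wt and 5257 ± 2.82 CPM in Treml4-/- cells, with Ccl5 at 76.7% and 71.4% and Ccl9 at 6.15% and 8.97%. The sum was higher in both wt libraries than in both Treml4-/- libraries at both LPS times. The libraries of 51.9% and 43.1% of all genes tested likewise did not overlap between the genotypes at 8 h and 12 h. Ccl5 itself was at 3367 ± 151 CPM in wt and 2610 ± 297 CPM in Treml4-/- cells after 8 h, and at 4908 ± 549 CPM and 3754 ± 110.2 CPM after 12 h (SD, n = 2).

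**Figure D1:**
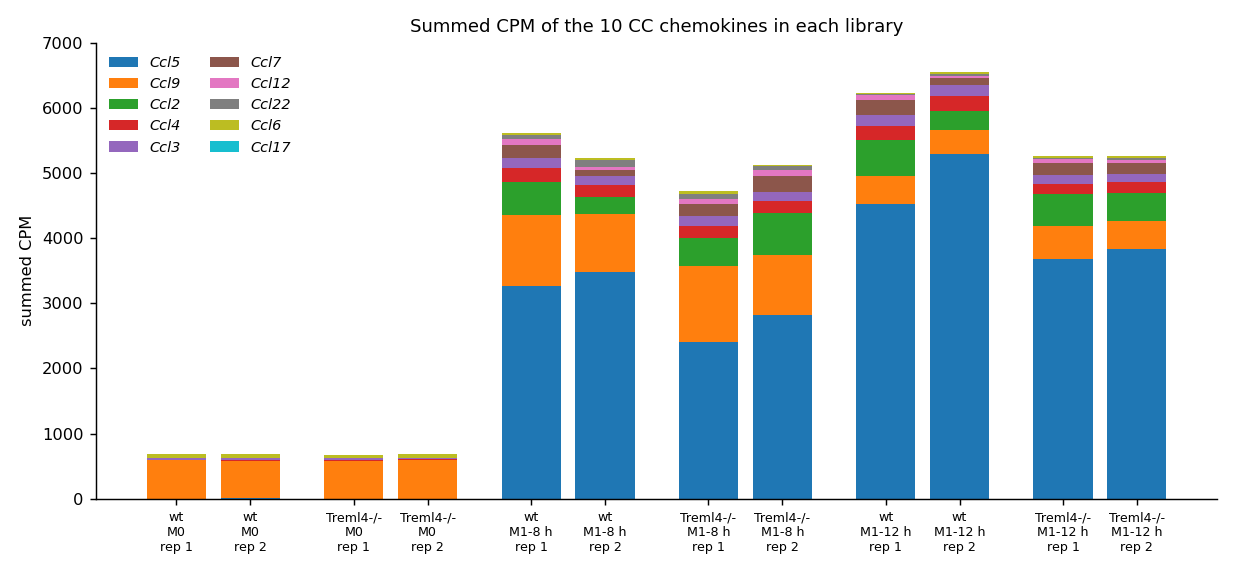
Stacked bars of the CPM of the 10 CC chemokines in each of the 12 libraries, with 1 bar per library and 1 colour per gene. The M0 bars, near 682 CPM, are mostly Ccl9, and the LPS bars, from 4717 to 6552 CPM, are mostly Ccl5.

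**Figure D2:**
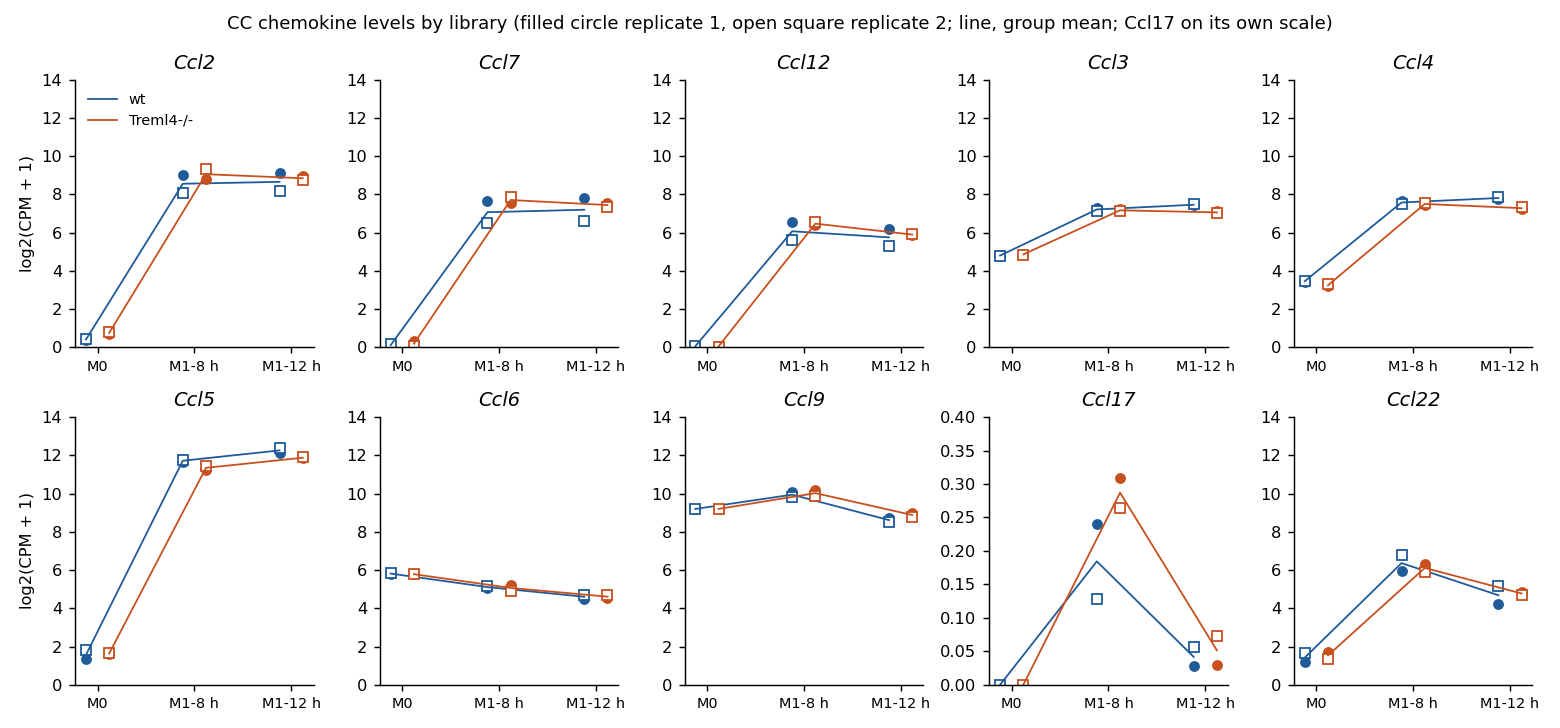
Level of each CC chemokine as log2(CPM + 1) in the 3 conditions, with 1 point per library, wt in blue and Treml4-/- in orange, and lines through the group means. Ccl2, Ccl3, Ccl4, Ccl5, Ccl7, Ccl12 and Ccl22 rise from M0, Ccl6 and Ccl9 stay within a narrow band, and Ccl17, drawn on its own scale, does not pass 0.239 CPM.

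Ccl2, Ccl7 and Ccl12 are the CCR2 ligands, which recruit monocytes from marrow and blood, and all 3 went from nearly no reads at M0 to high levels after LPS. Ccl2 (MCP-1) was at 0.289 and 0.374 CPM in the wt M0 libraries, 521 and 272 CPM after 8 h of LPS and 563 and 289 CPM after 12 h. The Treml4-/- libraries had 0.652 and 0.730 CPM at M0, 441 and 644 CPM after 8 h and 492 and 430 CPM after 12 h. All LPS libraries stood far above all M0 libraries, and within wt the first replicate was 1.92 and 1.94 times the second at M1-8 h and M1-12 h. On the log2(CPM + 1) scale Ccl2 rose by 8.15 (SE 0.322) at 8 h in wt and by 8.30 in Treml4-/- cells, with adjusted p of 1.2e-09 and 1.1e-09 by limma. At 12 h the rise was 8.25 and 8.09. Because the pseudocount is larger than the M0 level, this scale understates the change. The ratio of pooled reads was 1182 in wt (95% interval 846 to 1707, counting error only) and 779 in Treml4-/- cells (617 to 997) at 8 h.

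Ccl7 (MCP-3), which also binds CCR1 and CCR3, followed the same course at a lower CPM. In wt it went from 0.0386 and 0.138 CPM at M0 to 198 and 90.2 CPM at M1-8 h and to 220 and 96.8 CPM at M1-12 h. Treml4-/- cells went from 0.244 and 0.0561 CPM to 185 and 235 CPM and then to 188 and 160 CPM. The M0 values rested on 9 pooled reads in wt and 15 in Treml4-/- cells. The rise on the log2(CPM + 1) scale was 6.95 (SE 0.373) in wt and 7.51 in Treml4-/- cells at 8 h, and 7.08 and 7.25 at 12 h. As with Ccl2, the first wt replicate was the higher, 2.19 times the second at M1-8 h and 2.28 times at M1-12 h.

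Ccl12 (MCP-5), a mouse ligand of CCR2, had 5 pooled reads in the wt and 4 in the Treml4-/- libraries at M0. It was at 92.5 and 47.6 CPM in wt and at 83.4 and 92.6 CPM in Treml4-/- cells at M1-8 h, and at 73.2 and 38.5 CPM and 58.2 and 59.5 CPM at M1-12 h. The rise at 8 h was 6.01 (SE 0.297) in wt and 6.42 in Treml4-/- cells on the log2(CPM + 1) scale, and at 12 h 5.69 and 5.85. By pooled reads the ratio at 8 h was 1420 in wt (95% interval 608 to 4373) and 2252 in Treml4-/- cells (879 to 8269), wide because of the few M0 reads. The wt replicates differed as for Ccl2 and Ccl7, by 1.94 times at M1-8 h and 1.90 times at M1-12 h, while the Treml4-/- replicates differed by 1.02 to 1.11 times. The SE of the 3 genes, 0.297 to 0.373 on the log2 scale, was larger than that of Ccl3, Ccl4 and Ccl5, 0.0847 to 0.142.

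Ccl3, Ccl4 and Ccl5 act on T cells, macrophages and natural killer cells, and Ccl3 and Ccl5 are ligands of CCR1. Ccl5 (RANTES) had the highest level of the 10 genes after LPS. The wt libraries had 1.50 and 2.48 CPM at M0, 3261 and 3474 CPM after 8 h of LPS and 4520 and 5296 CPM after 12 h. The Treml4-/- libraries had 2.10 and 2.13 CPM at M0, 2400 and 2820 CPM after 8 h and 3676 and 3832 CPM after 12 h. Levels at M0 overlapped between the genotypes, and at both LPS times the 2 wt libraries were above the 2 Treml4-/- libraries. Non-overlapping genotypes were seen for 51.9% of all genes tested at M1-8 h and for 43.1% at M1-12 h. Ccl5 rose on the log2(CPM + 1) scale by 10.16 (SE 0.142) in wt and by 9.71 in Treml4-/- cells at 8 h, and by 10.70 and 10.23 at 12 h. This placed it at rank 4 and 5 of 12086 genes by log2 fold change at 8 h and at rank 3 in both genotypes at 12 h. The ratio of pooled reads was 1697 in wt and 1230 in Treml4-/- cells at 8 h, and 2467 and 1777 at 12 h. At 8 h that ratio was 1617 for Ccl7 (95% interval 852 to 3537) and 1420 for Ccl12 (608 to 4373) in wt. Both were below Ccl5 (1480 to 1957) with overlapping intervals, so this order is not resolved. In Treml4-/- cells the ratios of Ccl7 and Ccl12 were 1430 and 2252, above Ccl5, again with overlapping intervals. The rank of Ccl5 thus depends on the pseudocount, which damps genes with few M0 reads.

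Ccl3 and Ccl4 (MIP-1 alpha and beta) were already well read at M0, unlike the CCR2 ligands and Ccl5. Ccl3 was at 26.8 and 27.1 CPM in wt and at 27.9 and 28.5 CPM in Treml4-/- cells at M0. At M1-8 h it was at 157 and 140 CPM in wt and at 149 and 138 CPM in Treml4-/- cells, and at M1-12 h at 172 and 179 CPM in wt and at 137 and 128 CPM in Treml4-/- cells. Ccl3 rose by 2.41 (SE 0.0847) in wt and 2.30 in Treml4-/- cells at 8 h, or 5.32-fold and 4.94-fold, and by 2.66 and 2.20 at 12 h. Ccl4 was at 9.80 and 10.3 CPM in wt and at 8.13 and 8.94 CPM in Treml4-/- cells at M0. It was at 204 and 177 CPM in wt and at 175 and 187 CPM in Treml4-/- cells at M1-8 h, and at 215 and 234 CPM against 151 and 159 CPM at M1-12 h. Its rise was 4.11 (SE 0.0954) and 4.25 at 8 h, and 4.35 and 4.03 at 12 h. Replicates of these genes lay within 1.15 times of each other in each group.

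Ccl6 and Ccl9, ligands of CCR1 that macrophages make without a stimulus, behaved unlike the rest. Ccl9 (MIP-1 gamma) was at 582 and 589 CPM in wt and at 581 and 590 CPM in Treml4-/- cells at M0, the highest CPM of the 10 genes there. At M1-8 h it was at 1086 and 890 CPM in wt and at 1167 and 926 CPM in Treml4-/- cells, and at M1-12 h at 426 and 358 CPM in wt and at 507 and 437 CPM in Treml4-/- cells. It rose at 8 h by 0.75 (SE 0.136, adjusted p = 0.00031, limma) in wt and by 0.83 in Treml4-/- cells, or 1.68-fold and 1.77-fold, and by 1.59 and 1.58 with median of ratios scaling. At 12 h its log2 difference from M0 was -0.58 in wt (adjusted p = 0.0018), which turned to 0.29 with median of ratios scaling. For Treml4-/- cells it was -0.32, below the minimum of 1.4-fold, and turned to 0.51, which passed that minimum. The wt call at 12 h was also lost without wt replicate 2 of M1-12 h, when the value was -0.46.

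Ccl6 was at 54.5 and 56.3 CPM in wt and at 53.8 and 54.5 CPM in Treml4-/- cells at M0. It was at 32.7 and 34.4 CPM in wt and at 36.6 and 28.8 CPM in Treml4-/- cells at M1-8 h, and at 21.6 and 25.1 CPM and 21.9 and 25.0 CPM at M1-12 h. Each LPS library was below each M0 library in CPM. The log2 difference at 8 h was -0.71 (SE 0.123) in wt and -0.72 in Treml4-/- cells, but with median of ratios scaling it turned to 0.12 and 0.016. At 12 h it was -1.21 and -1.18, and -0.36 and -0.37 with that scaling, when neither was called. The median of all 12086 genes tested was -0.74 in wt and -0.70 in Treml4-/- cells at 8 h, and -0.77 and -0.74 at 12 h, so relative to the median gene Ccl6 was level at 8 h and lower at 12 h. The other scaling moved the median gene by 0.71 and 0.65 at 8 h and by 0.73 and 0.71 at 12 h.

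**Figure D3:**
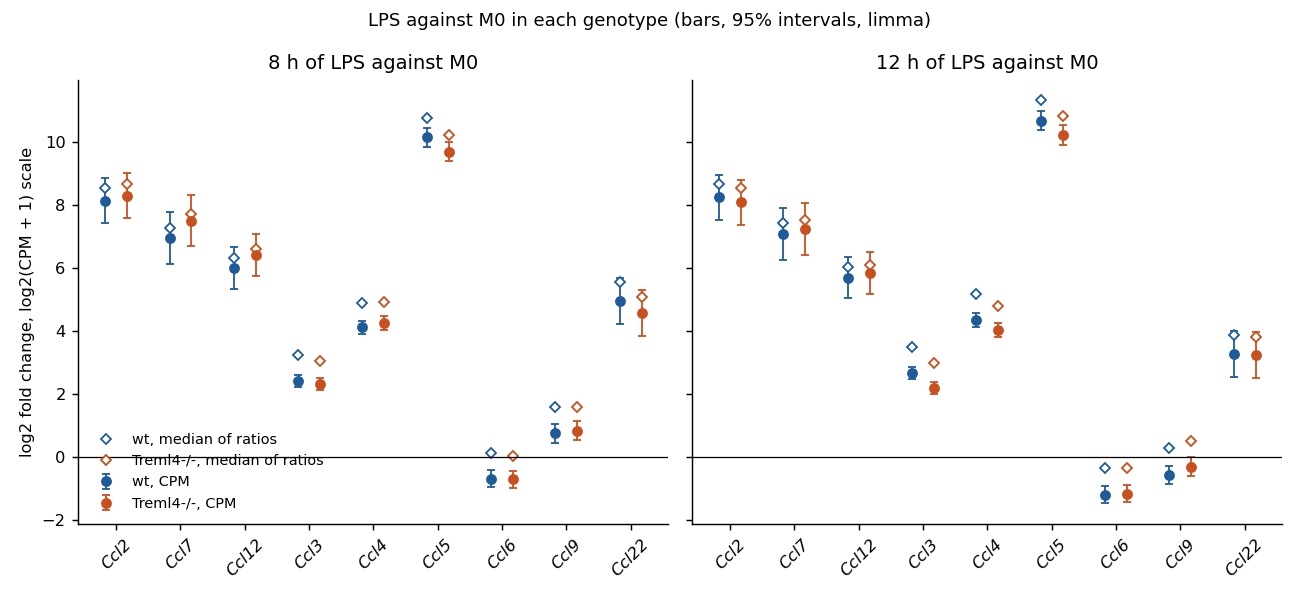
Log2 fold changes of 9 CC chemokines at 8 h (left) and 12 h (right) of LPS against M0, with filled circles and 95% intervals from limma on CPM for wt (blue) and Treml4-/- (orange) and open diamonds for median of ratios scaling. Ccl5 lies at 9.71 to 10.70 on CPM, and only Ccl6 at 8 h and Ccl9 at 12 h lie on different sides of 0 under the 2 scalings.

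Ccl22 and Ccl17 are the CCR4 ligands, which attract helper and regulatory T cells and are typical products of dendritic cells and of macrophages given interleukin-4. Ccl22 (MDC) was at 1.27 and 2.16 CPM in wt and at 2.34 and 1.52 CPM in Treml4-/- cells at M0. At M1-8 h it was at 61.3 and 108 CPM in wt and at 80.1 and 58.0 CPM in Treml4-/- cells, and at M1-12 h at 17.4 and 35.0 CPM and 27.8 and 25.0 CPM. It rose at 8 h by 4.94 (SE 0.331) in wt and 4.58 in Treml4-/- cells, and at 12 h the difference from M0 was 3.26 and 3.24. The second wt replicate was the higher, 1.76 times at M1-8 h and 2.01 times at M1-12 h, which is the reverse of the order seen for the CCR2 ligands in the same libraries. Itgax, a dendritic cell and macrophage marker, was also higher in the second wt replicate, with 36.8 and 69.1 CPM at M1-8 h and 32.2 and 50.5 CPM at M1-12 h. In Treml4-/- cells it was at 53.9 and 39.0 CPM at M1-8 h, in the order of Ccl22, and at 39.0 and 50.4 CPM at M1-12 h, in the opposite order. Itgax was called lower after LPS, where Ccl22 rose, in all 4 comparisons with M0, and in none of them with median of ratios scaling. The other 2 dendritic cell markers that passed the filter, Xcr1 and Clec9a, were called higher in all 4 under both scalings. The part of these markers in the Ccl22 values was not tested.

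Ccl17 (TARC) was close to the limit of detection. It had 0 reads in all 4 M0 libraries, which allows up to 0.0561 to 0.0611 CPM per library at 3 reads. At M1-8 h it had 9 and 5 reads in wt and 14 and 11 in Treml4-/- cells, that is 0.182 and 0.0928 CPM and 0.239 and 0.201 CPM. At M1-12 h it had 1 and 2 reads in wt and 1 and 3 in Treml4-/- cells. Against a floor of 3 reads over the M0 group, Ccl17 at M1-8 h was at least 4.63-fold higher in wt and at least 7.55-fold higher in Treml4-/- cells. It did not reach 1 CPM in any library and was left out of the tests.

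The 9 members that passed the filter on low values were tested among all 12086 genes, and a call needed an adjusted p under 0.05 and at least 1.4-fold. At 8 h of LPS, 8 of the 9 were called higher and 1, Ccl6, lower, in wt and likewise in Treml4-/- cells. Over all genes tested, 16.3% were called higher and 60.6% lower in wt, and 17.7% and 58.1% in Treml4-/- cells. At 12 h, 7 were called higher and 2, Ccl6 and Ccl9, lower in wt, against 16.2% and 60.4% of all genes. Among Treml4-/- cells 7 were called higher and 1, Ccl6, lower, against 16.1% and 59.6%. With median of ratios scaling the calls of all genes were nearly evenly split, with 50% in wt and 48.9% in Treml4-/- cells being higher at 8 h and 49.9% in both at 12 h, where CPM had given 21.2% and 23.4% at 8 h and 21.2% and 21.3% at 12 h. The lower calls of Ccl6 at 8 h and 12 h and of Ccl9 at 12 h in wt were all lost with that scaling, and Ccl9 was then called higher at 12 h in Treml4-/- cells. The 7 members other than Ccl6 and Ccl9 were called higher under both scalings in all 4 comparisons. A member that is low at M0 passed the filter through its LPS libraries, so these counts describe the members and are not a test of the family. The median log2 fold change of the 9 members at 8 h was 4.94 in wt and 4.58 in Treml4-/- cells.

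Between 8 h and 12 h of LPS the members moved in different directions, as genes in general did. Ccl5 rose further, by 0.54 (SE 0.142, adjusted p = 0.0096, limma) in wt and by 0.53 (adjusted p = 0.011) in Treml4-/- cells, or 1.45-fold and 1.44-fold. These values lie close to the minimum fold. The wt call was lost without replicate 1 of M1-8 h (0.49) or replicate 2 of M1-12 h (0.43). The Treml4-/- call was lost without replicate 1 of M1-8 h (0.41) or replicate 2 of M1-12 h (0.50). In each case the adjusted p did not pass, and the values of 0.43 and 0.41 were also under the minimum fold. Ccl9 fell by 1.33 on the log2 scale in wt and by 1.14 in Treml4-/- cells, and all M1-12 h libraries were below all M1-8 h libraries. Ccl22 fell by 1.68 in wt and by 1.34 in Treml4-/- cells, where the call was lost without replicate 1 of M1-8 h (-1.11). Ccl6 fell by 0.51 in wt and differed by -0.46 in Treml4-/- cells, below the minimum fold. The wt call of Ccl6 was lost without replicate 2 of M1-8 h (-0.47), without replicate 1 of M1-12 h (-0.40) and with median of ratios scaling (-0.48), and the Treml4-/- value passed without replicate 2 of M1-8 h (-0.62) or of M1-12 h (-0.55). In all, 1 member was called higher and 3 lower in wt, against 14% and 17.6% of all genes, and 1 higher and 2 lower in Treml4-/- cells, against 12.9% and 19.4%. In Treml4-/- cells these counts lie close to the shares of all genes, and so does the higher count in wt. The CCR2 ligands were not called between the times in either genotype, with adjusted p of 0.138 to 0.823. With genotype and replicate number together as a block, and with only the libraries compared, Ccl12 was called lower at 12 h in Treml4-/- cells.

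The libraries of Ccl3 and Ccl4 separated in opposite directions between the LPS times in the 2 genotypes, though neither gene was called. In wt both M1-12 h libraries were above both M1-8 h libraries, with differences of 0.24 for Ccl3 and 0.23 for Ccl4 on the log2(CPM + 1) scale. In Treml4-/- cells both M1-12 h libraries were below both M1-8 h libraries, with differences of -0.11 (95% interval -0.29 to 0.079) and -0.22 (-0.43 to -0.011). The interval of Ccl3 includes 0, so a fall of Ccl3 there is not established. The contrast of these differences between the genotypes, chosen after the values were seen, was 0.35 for Ccl3 (95% interval 0.088 to 0.62) and 0.46 for Ccl4 (0.16 to 0.75), with an adjusted p of 0.948 for both by limma. In this contrast 0% of the 12086 genes were called and 388 had an unadjusted p under 0.05. Between the LPS times 53.2% of all genes in wt and 53.9% in Treml4-/- cells had an unadjusted p under 0.05 by limma. The share of all genes whose libraries separated in opposite directions was not counted.

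No member was called between wt and Treml4-/- cells by limma at any time point. At M0, 0 of 9 were called against 0.0993% of all genes, and 1 had an unadjusted p under 0.05, as did 3.35% of all genes. After 8 h of LPS the count was again 0, against 0.091% of all genes, and 1 member and 21.0% of all genes had an unadjusted p under 0.05. After 12 h it was 0 against 0.132%, and 3 members and 7.55% of all genes had such a p. Averaged over the 3 time points, 0 of 9 were called against 0.414%, and 3 members and 20.1% of all genes had such a p. With voom on the recovered reads the counts were also 0 at each time point and over the 3 time points.

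Ccl3, Ccl4 and Ccl5 held the genotype differences with the smallest p-values. Ccl4 was higher in wt by 0.53 at M1-12 h (95% interval 0.32 to 0.74), or 1.45-fold, with an adjusted p of 0.0993 by limma, and with median of ratios scaling the difference was 0.62 and passed (adjusted p = 0.031). Over its planned and added alternatives that adjusted p ranged from 0.0314 to 0.859. Ccl3 was higher in wt by 0.40 (0.21 to 0.59) at M1-12 h, or 1.32-fold, with an adjusted p of 0.142. Ccl5 was higher in wt by 0.37 (0.058 to 0.68) at M1-8 h and by 0.38 (0.069 to 0.70) at M1-12 h, with adjusted p of 0.191 and 0.543. At M1-12 h the wt and Treml4-/- libraries of Ccl3, Ccl4 and Ccl5 did not overlap, with wt higher, and those of Ccl9 did not overlap with wt lower. At M1-8 h the same held for Ccl5, with wt higher, and for Ccl17, with wt lower. Such separation was common, since the libraries of 28.8% of all genes tested did not overlap between the genotypes at M0, and those of 51.9% and 43.1% after 8 h and 12 h of LPS.

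At M0 the Ccl4 libraries were also higher in wt, by 0.21 (95% interval 0.0038 to 0.42, adjusted p = 1, limma), and the M0 libraries of Ccl2 and Ccl3 were lower in wt. Averaged over the 3 time points, Ccl4 differed by 0.27 (0.15 to 0.40) with an adjusted p of 0.0498 by limma. At 1.21-fold this was under the minimum of 1.4-fold, so it was not called. The fit took libraries of the same replicate number at the 3 times as independent. The labels do not say whether such libraries share a culture. Intervals and p-values of this average can therefore be too narrow. With genotype and replicate number together as a block, a genotype difference cannot be estimated. On the same average Ccl5 differed by 0.23 (adjusted p = 0.193) and Ccl3 by 0.13 (adjusted p = 0.202). For the CCR2 ligands the signs were the other way, with Ccl2 at -0.34 (95% interval -0.75 to 0.066) and Ccl7 at -0.32 (-0.79 to 0.16), and both intervals include 0. At M1-8 h the Ccl2 difference was -0.50, but between -0.97 and -0.03 when single libraries were left out, and that of Ccl7 was -0.64, between -1.20 and -0.08. The adjusted p of the remaining members in these genotype comparisons ranged from 0.404 to 1.

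**Figure D4:**
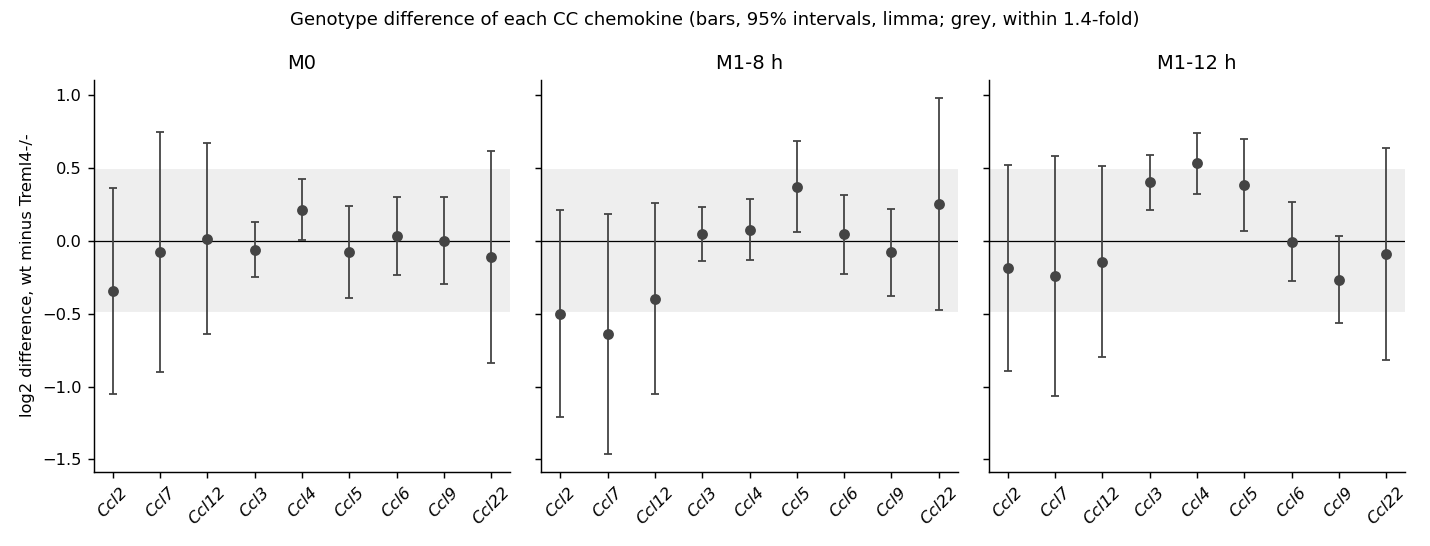
Log2 difference between wt and Treml4-/- cells for 9 CC chemokines in each condition, as points with 95% intervals from limma, wt minus Treml4-/-. The grey band is within 1.4-fold, and only Ccl3, Ccl4 and Ccl5 at M1-12 h, Ccl5 at M1-8 h and Ccl4 at M0 have intervals that leave out 0.

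The genotype by LPS terms ask whether the response itself differed. For Ccl5 the rise was larger in wt by 0.45 at 8 h (95% interval 0.0065 to 0.89) and by 0.46 at 12 h (0.018 to 0.90), for Ccl3 by 0.46 at 12 h (0.20 to 0.72) and for Ccl4 by 0.32 at 12 h (0.020 to 0.62). By limma the adjusted p was 0.729 for Ccl5 at 8 h and 0.999 for each of the 3 at 12 h. No member was called in either term, against 0.00827% of all genes in each, and 1 and 3 members had an unadjusted p under 0.05, against 6.67% and 3.82% of all genes.

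Compared per length of exon (RPKM, CPM per kilobase of exon), the order of the members changed with LPS. At M0 in wt the order was Ccl9 at 192 RPKM, Ccl3 at 35.2, Ccl6 at 30.9, Ccl4 at 15.2, Ccl5 at 2.07, Ccl22 at 0.739, Ccl2 at 0.291, Ccl7 at 0.110, Ccl12 at 0.0909 and Ccl17 at 0. Ccl7 and Ccl12 overlapped there, and Ccl12 and Ccl17, with 5 and 0 pooled reads, cannot be ranked at this depth. The order of the means in Treml4-/- cells was identical. At M1-8 h in wt Ccl5 led at 3508 RPKM, followed by Ccl2 at 348, Ccl9 at 325, Ccl4 at 289, Ccl3 at 193, Ccl7 at 180, Ccl12 at 130, Ccl22 at 36.4, Ccl6 at 18.7 and Ccl17 at 0.267. The replicates of Ccl2 and Ccl9, of Ccl9 and Ccl4, of Ccl3 and Ccl7, and of Ccl7 and Ccl12 overlapped, so these neighbours cannot be ranked. At M1-12 h in wt Ccl5 reached 5113 RPKM, Ccl2 374, Ccl4 340, Ccl3 229, Ccl7 198, Ccl9 129, Ccl12 104, Ccl6 13.0, Ccl22 11.3 and Ccl17 0.0573. There the replicates of Ccl2 and Ccl4, of Ccl3 and Ccl7, of Ccl7 and Ccl9, of Ccl9 and Ccl12, and of Ccl6 and Ccl22 overlapped, so the place of Ccl9 is not resolved beyond being below Ccl3 and above Ccl6. In Treml4-/- cells at M1-12 h Ccl5 was at 3910 RPKM and Ccl2 at 405, and the neighbours Ccl4 at 235 and Ccl7 at 217 overlapped.

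Profiles of the members were compared across the 12 libraries. Ccl2 was most like Ccl7 among the members (Pearson r = 0.9991 on log2(CPM + 1)), Ccl12 most like Ccl7 (0.998), Ccl3 and Ccl4 most like each other (0.997), and Ccl5 most like Ccl4 (0.996). Ccl6 ran against Ccl5 (-0.916), and its highest value with another member was 0.239, with Ccl9. Ccl22 was most like Ccl12 (0.938), and Ccl9 most like Ccl22 (0.421). Outside the family the gene most like Ccl2 was Il1rn (0.998), an interleukin-1 antagonist, that of Ccl7 was Asprv1 (0.997), and that of Ccl12 was Il10 (0.998), an anti-inflammatory cytokine. For Ccl3 it was Lrrc8c (0.998), for Ccl4 Sectm1a (0.999), for Ccl5 Slamf1 (0.9996), for Ccl6 Cdc25a (0.994), for Ccl9 Lrrc59 (0.975) and for Ccl22 the transcript Gm16181 (0.995). These values rest on 12 libraries that share the large contrast between M0 and LPS.

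Of 14 other CC chemokines, 13 were in the table and 4 passed the filter. Ccl8 (MCP-2), which shares the Ccl2 locus and recruits monocytes and T cells, went from 0.0197 CPM in wt at M0 to 22.4 ± 0.132 CPM (SD, n = 2) after 8 h and 30.5 ± 3.07 CPM after 12 h of LPS. It rose by 4.52 (SE 0.114) at 8 h in wt and by 4.57 in Treml4-/- cells. Ccl24 (eotaxin-2) rose by 2.40 (SE 0.415) in wt, from 0.204 CPM at M0 to replicates at 2.81 and 9.65 CPM, and by 1.60 in Treml4-/- cells. Ccl25 and Ccl27a, of low level, differed by -0.62 and -0.81 at 8 h in wt, both called, but neither passed with median of ratios scaling, where the values were -0.16 and -0.49. The other 9 genes in the table did not exceed 2 reads in any library, and of these Ccl1, Ccl19, Ccl20, Ccl21a, Ccl21b, Ccl26 and Ccl27b had 0 reads in all. At 8 h, 2 of the 4 were called higher and 2 lower in wt, against 16.3% and 60.6% of all genes, and 2 and 1 in Treml4-/- cells, against 17.7% and 58.1%.

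Of 14 CC receptors, 7 passed the filter, and at 8 h in wt 5 were called higher and none lower, against 16.3% and 60.6% of all genes. Ccrl2, which holds the chemoattractant chemerin on the cell surface, rose by 6.26 (SE 0.115), from 7.45 to 645 CPM. Ccr7, the receptor that guides cells to lymph nodes, rose by 3.77, from 0.0779 to 14.3 ± 5.76 CPM (SD, n = 2). Ccr1, a receptor of Ccl3 and Ccl5, rose by 1.66 to 66.4 CPM, and Ccr9 rose by 2.03, from 0.302 to 4.32 CPM. Because of the pseudocount, the log2 values of Ccr7 and Ccr9 understate the change. Ccr2, the receptor of Ccl2, Ccl7 and Ccl12, was at 45.9 CPM at M0 and 41.3 CPM at M1-8 h in wt, and its log2 difference at 12 h was -1.22 in wt and -1.34 in Treml4-/- cells, both called. In wt it was not called at 12 h with median of ratios scaling (-0.37). Ccr4, the receptor of Ccl17 and Ccl22, had at most 3 reads in a library. In Treml4-/- cells 6 receptors were called higher and none lower at 8 h, against 17.7% and 58.1% of all genes. With median of ratios scaling 7 were called higher in each genotype.

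All 10 written regulators of these genes passed the filter, and 5 were called higher and 4 lower at 8 h in wt, likewise in Treml4-/- cells, where 60.6% and 58.1% of all genes were called lower. With median of ratios scaling 6 were called higher and 2 lower in each. Irf1, a factor of the interferon response, rose by 3.55 in wt and was still 3.67 above M0 at 12 h. The NF-kB subunits Rel and Nfkb1 rose by 2.02 and 1.71 at 8 h, and at 12 h were 0.54 and 0.13 above M0, of which Nfkb1 was not called. Zfp36, an RNA-binding protein that speeds decay of cytokine transcripts, rose by 2.65 at 8 h and was 2.18 above M0 at 12 h. Irf4, a factor of the interleukin-4 response, went from 2.49 CPM at M0 to 0.147 CPM at M1-8 h in wt. Its fall of 1.61 on the log2(CPM + 1) scale understates this change, and it was called lower with median of ratios scaling too (-1.20). No gene of the 3 lists was called between the genotypes at any time point by limma, while 1 chemokine, 4 receptors and 3 regulators had an unadjusted p under 0.05 after 8 h of LPS, against 21.0% of all genes.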

How the data were processed

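Poly(A)-selected, strand-specific libraries of BMDM RNA were sequenced as paired ends. The authors aligned the reads with STAR and counted them per gene with Subread in a workflow that also holds DESeq2, edgeR and limma, and the submitters' processing notes name the build mm10. Whether counting used strand, and how reads shared by paralogs were treated, is not given in the sources used here. The deposited values are log2 CPM, that is reads scaled to library size with a prior count of 0.25. CPM had been assumed, so the log2 values were first turned back into reads and CPM. Whole reads, within 0.01 of a read, were recovered for 100% of values, and recomputed log2 CPM differed from the deposited ones by at most 5.2e-14. Replicates differed by more than sampling noise (chi-square per degree of freedom 11.3 or more) and were kept apart. Intervals on reads cover counting error only.

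The 12086 genes that reached 1 CPM in 2 or more libraries entered the fit on the log2(CPM + 1) scale, made by limma 3.58.1 (R 4.3.3) over all 12 libraries with a mean for each group and a variance trend. The log2(CPM + 1) scale understates changes of genes near or below 1 CPM. Genotype contrasts are wt minus Treml4-/-. Benjamini-Hochberg adjustment ran over all genes tested, and the threshold of 5% with at least 1.4-fold follows the study. The script was tested on simulated data. RPKM used the exon length of GENCODE M21 (GRCm38, the build called mm10). The macrophage marker Adgre1 is listed under its older symbol Emr1. Tables were made with Python 3.11.15, pandas 2.3.3 and scipy 1.17.1, and figures with matplotlib 3.10.9. The members and lists were chosen with earlier results of these data known. All 10 members are named. From each other list, values are given for the tested genes with the largest changes at 8 h in wt, up to 6, and for Ccr4, and some of these genes are not reported here. The likeness measure names, per member, the gene with the highest Pearson r. Alternatives were a pseudocount of 0.1, no filter, a filter at 5 CPM and median of ratios scaling. Others were a block by replicate number, or by genotype and replicate number together, which the labels do not name as a culture. The rest were only the libraries compared, no trend, no minimum fold and leaving out each library. Added after seeing the data were a fit of the deposited log2 CPM as they stand, voom on recovered reads, and the contrast of 12 h against 8 h between the genotypes.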

Additional observations from a re-analysis of the deposited data

Results flagged for a closer look

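Ccl3 and Ccl4 were flagged because both M1-12 h libraries lay above both M1-8 h libraries in wt and below them in Treml4-/- cells. The contrast between the genotypes was 0.3518 for Ccl3 and 0.4559 for Ccl4 on the log2(CPM + 1) scale, with an adjusted p of 0.948 for both by limma. Leaving out single libraries gave 0.27 to 0.43 for Ccl3 and 0.35 to 0.56 for Ccl4. Ccl3 was also flagged because both wt libraries were below both Treml4-/- libraries at M0 and above them at M1-12 h, and the change in the genotype difference was 0.4607, with an adjusted p of 0.999 by limma. None of these differences passed the correction over all genes. The share of all genes whose libraries separated between the LPS times was not counted. Between those times 53.2% of all genes in wt and 53.9% in Treml4-/- cells had an unadjusted p under 0.05 by limma. The libraries of 28.8% of all genes tested did not overlap between the genotypes at M0, and those of 43.1% after 12 h of LPS. No group was large enough for a check of single outlying libraries.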

How the results depend on the processing

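Of 66 fitted member values given, recomputed under 1435 alternatives in all, 1417 kept their direction and side of the threshold, 4 reversed, 11 lost and 3 gained a call, in 12 of the 66 values. The alternative with no minimum fold was left out of this count, so calls gained under it are not included. Median of ratios scaling reversed Ccl6 at 8 h (0.1188 in wt, 0.0162 in Treml4-/- cells) and Ccl9 at 12 h (0.2908 and 0.5089). By its construction it centres the median gene near 0. With that scaling 1 member, Ccl4, was called between the genotypes at M1-12 h, and with no minimum fold 1, again Ccl4, over the 3 time points. The number of members called at 12 h against 8 h in Treml4-/- cells ran from 1 to 4 when single libraries were left out, the 1 being Ccl9 without replicate 1 of M1-8 h. The cause of these changes was not tested. Ccl12 was called there (4 members) with genotype and replicate number together as a block and with only the libraries compared.

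The genotypes share replicate numbers only, and same-numbered libraries did not deviate together throughout (correlations from -0.272 to 0.462). With the replicate block the members called were 9 at 8 h in both genotypes, 9 in wt and 8 in Treml4-/- cells at 12 h, 4 and 3 between the times, and 0 between genotypes, as without it.

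Over all genes, genotype calls depended on single libraries. They were 12 at M0 (219 without wt replicate 1 and 7 without Treml4-/- replicate 1 of M0, and 7 with only the libraries compared), 11 at M1-8 h (598 without Treml4-/- replicate 1 and 19 without wt replicate 1 of that time, 7 with no filter, 5 with only the libraries compared), 16 at M1-12 h (6 to 79) and 50 over the 3 time points (17 to 183). The genotype by LPS terms had 1 call each (0 to 3 at 8 h, 0 to 33 at 12 h). Of the calls over the 3 time points 20% were higher in wt, and 52% with median of ratios scaling, while the shares went from 36.4% to 53.8% after 8 h of LPS and from 37.5% to 60% after 12 h. With 2 libraries a group, differences near 1.4-fold are at the limit of detection, and levels under 0.0625 CPM rest on 3 reads or fewer.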
